A study of Mus musculus with 7 samples.

Results

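Mitosis and spindle genes were followed on 7 mouse arrays, 1 array per condition. The 54 genes are a list of cell division genes, drawn up with earlier results of these data known, and each was taken from the row in which the platform annotation gives it as the only gene symbol. Such a row was found for 53 of the 54, among 13562 genes named in the same way. Ccnb1, which encodes cyclin B1, had none and is not analysed here.

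A dividing cell enters mitosis when the kinase Cdk1, bound to A- and B-type cyclins, is activated by Cdc25 phosphatases with the help of Polo-like and Aurora kinases. Condensins and topoisomerase II compact the chromosomes, kinetochores attach them to the spindle that kinesins build, and the spindle checkpoint holds the cell until every chromosome is attached. The anaphase-promoting complex then frees the sister chromatids, and the cell splits at cytokinesis. The RNAs of most of these genes accumulate in G2 and mitosis and are low in cells that have left the cycle. Mouse ESCs are known for rapid division with short gap phases.

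The series compared cells with and without Utx, the histone H3 lysine 27 demethylase encoded by the X-linked gene Kdm6a. V6.5 embryonic stem cells (ESCs) were Utx+/Y (WT) or Utx-/Y (KO). V19-OSKM mouse embryonic fibroblasts (MEFs) carried the reprogramming factors Oct4, Sox2, Klf4 and c-Myc under control of doxycycline (DOX) and were Utx+/Y or Utx-/Y, each without DOX and with DOX, for a time that the labels do not state. The seventh array held fibroblasts derived from Nanog-/- ESCs and transduced with an OSKM lentivirus for 8 days, with no statement of their Utx genotype or of DOX. One growth medium, that of ESCs, is given for all samples, and no animal, clone or age is named.

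Values are deposited log2 intensities, and every difference is on the log2 scale, so that 1 equals 2-fold. No condition was repeated, so a difference between 2 arrays has no replicate check and no p-value, and a higher level in a culture cannot be told apart from a larger share of dividing cells. Genes were counted as 2-fold different where the higher of both values exceeded a floor of 7.34, the 40th percentile of all values. The median of all rows was 8.55 for the Nanog KO array and between 7.68 and 7.84 for each of the other 6. Differences from the last array were therefore taken after the array medians had been aligned, with a floor of 7.25.

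The labels of the MEF libraries were checked against genes that they should fix. Kdm6a read lower in the KO than in the WT library in ESCs (7.97 against 9.12), in MEFs without DOX (6.32 against 8.22) and in MEFs with DOX (7.57 against 8.93). Pou5f1, the gene of Oct4, read 8.19 without and 12.59 with DOX in WT MEFs. In the MEF libraries labelled KO it read 11.26 without and 5.12 with DOX, which goes against those labels, so they are called libraries labelled KO throughout. On the Nanog KO array, whose median is higher, the deposited values were 9.08 for Kdm6a and 11.91 for Pou5f1. Of 11 measured fibroblast markers, 11 were above the floor on 4 of the 5 fibroblast arrays and 5 in WT MEFs with DOX, where 11 of 12 epithelial markers were above it. Of 12 macrophage markers, 12 were above the floor in WT MEFs without DOX, 2 in WT MEFs with DOX, 5 and 8 in the libraries labelled KO without and with DOX, and 11 on the Nanog KO array. The part of these cell types in the results below was not tested.

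Many promoters of genes expressed in G2 and mitosis are known to hold a CHR element close to the start of transcription, which binds the MuvB complex together with B-Myb and FoxM1 or with the DREAM repressor, and CCAAT boxes, which bind NF-Y. Both were searched on both strands as TTTGAA or TTTAAA for the CHR and CCAAT for the box, from 250 bases before to 50 bases after the annotated start in RefSeq for GRCm38.p6. Windows were found for 45 of the 54 genes. A CHR match was present in 34 of the 45 (75.6%), against 22.1% of 10502 protein-coding genes on the array, and a CCAAT match in 32 (71.1%), against 42.2%. Both were present in 27 (60%), against 10.3%, and neither in 6, against 46%. A CHR match within 50 bases of the start, a range chosen after its positions were seen, was present in 29 (64.4%), against 6.26%. Related lists, described further on, lay between. Of 91 other mitosis genes, 45.1% had a CHR match, 60.4% a CCAAT match and 31.9% a CHR match within 50 bases. Of 30 DNA replication genes these shares were 26.7%, 56.7% and 13.3%, so the CCAAT share of the 45 was not far above theirs. Only 1 CHR match in the windows of the 45 shared a base with a CCAAT match. A match is a run of letters, and no binding was measured here.

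The next 4 sequences are shown because their genes had the CHR match and read at least 2-fold lower on the Nanog KO array than in WT MEFs with DOX, as described further on. Each runs from 150 bases before to 30 bases after the start, 5′ to 3′, with CHR and CCAAT matches in capitals on either strand. Cdc20 lies at chr4:118437314-118437493 on the minus strand, Plk1 at chr7:122159285-122159464 on the plus strand, Ccnb2 at chr9:70421525-70421704 on the minus strand and Anln at chr9:22389177-22389356 on the minus strand. The CHR match of Cdc20 began at position -18 and its CCAAT matches at -53 and -8, counted from the start. Ccnb2, a B-type cyclin, held 3 CCAAT matches at -87, -54 and -21, and Anln held none.
Cdc20: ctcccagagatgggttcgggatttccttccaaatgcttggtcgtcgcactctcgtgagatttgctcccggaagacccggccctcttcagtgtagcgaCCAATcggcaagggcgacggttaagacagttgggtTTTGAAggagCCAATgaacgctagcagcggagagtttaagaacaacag
Plk1: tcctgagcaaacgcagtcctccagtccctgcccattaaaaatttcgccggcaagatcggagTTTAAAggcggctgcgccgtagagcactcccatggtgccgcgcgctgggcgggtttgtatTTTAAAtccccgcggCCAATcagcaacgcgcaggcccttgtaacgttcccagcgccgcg
Ccnb2: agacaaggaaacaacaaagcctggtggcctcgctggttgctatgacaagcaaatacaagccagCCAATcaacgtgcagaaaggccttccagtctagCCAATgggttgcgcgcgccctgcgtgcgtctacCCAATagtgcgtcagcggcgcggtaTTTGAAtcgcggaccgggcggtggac
Anln: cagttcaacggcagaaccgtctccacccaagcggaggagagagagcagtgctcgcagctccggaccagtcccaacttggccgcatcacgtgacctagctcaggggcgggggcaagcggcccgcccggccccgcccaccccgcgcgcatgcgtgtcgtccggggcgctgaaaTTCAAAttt

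Mad2l1, at chr6:66535071-66535250 on the plus strand, and Mybl2, at chr2:163054485-163054664 on the plus strand, are shown beside them because they held neither motif in the window and were among the genes that differed least on the Nanog KO array. The printed sequences were thus picked by motif and difference together, and other genes went the other way. Bub3 had a CHR match and differed by -0.02 from WT MEFs with DOX. Bub1 and Nusap1 had no CHR match and read at least 2-fold lower.
Mad2l1: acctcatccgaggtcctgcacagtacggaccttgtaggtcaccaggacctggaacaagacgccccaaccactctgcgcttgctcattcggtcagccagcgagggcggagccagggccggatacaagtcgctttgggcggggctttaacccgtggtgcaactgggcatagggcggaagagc
Mybl2: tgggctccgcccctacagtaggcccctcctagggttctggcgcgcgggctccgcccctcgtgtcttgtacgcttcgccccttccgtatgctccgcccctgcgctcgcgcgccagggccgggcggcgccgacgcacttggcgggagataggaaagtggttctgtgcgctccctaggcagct

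**Figure D1:**
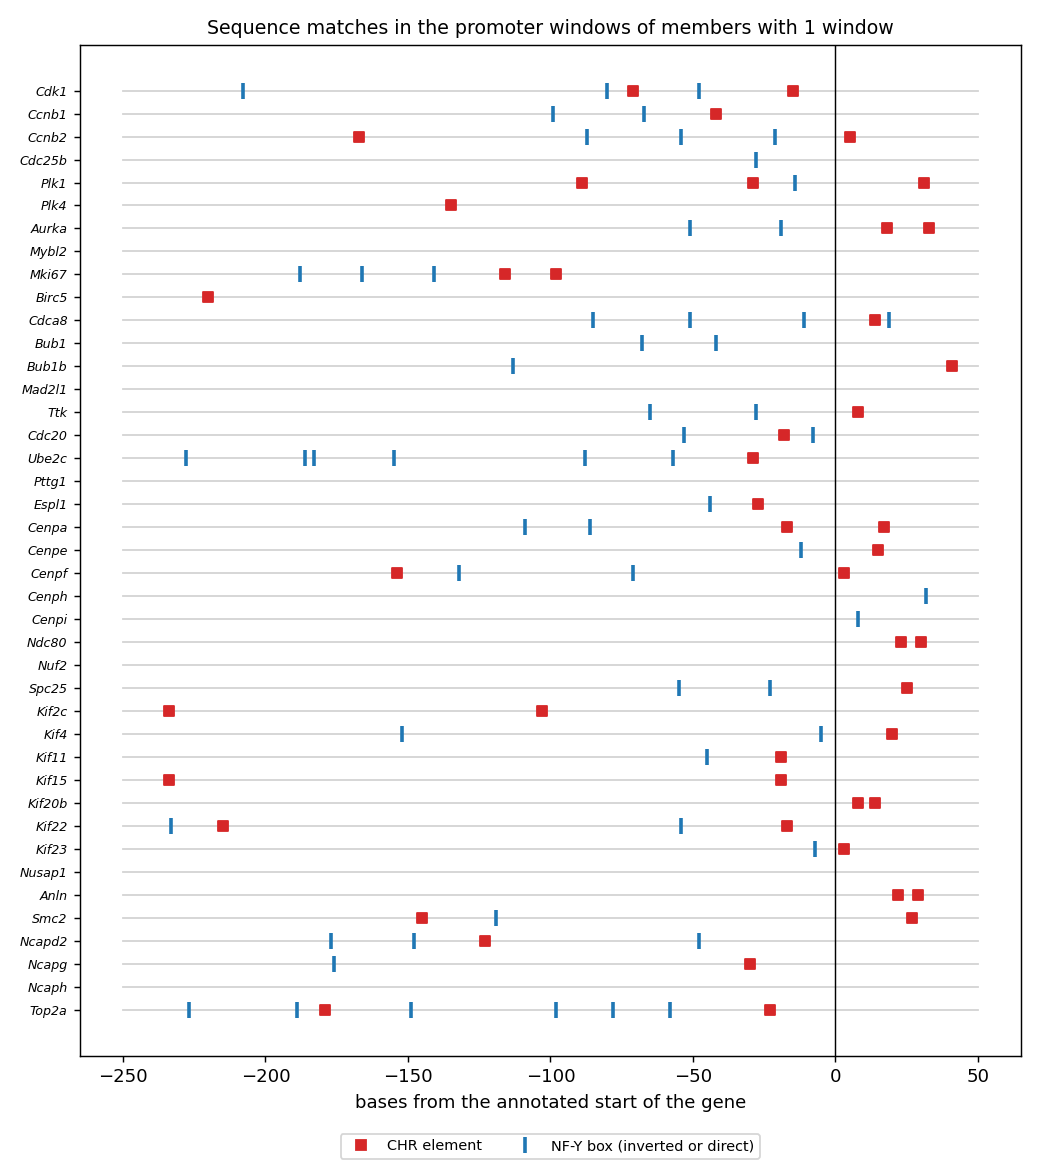
Positions of CHR matches (red squares) and CCAAT matches on either strand (blue bars, NF-Y box) in the promoter windows of the 41 genes with 1 window; the x axis is the distance in bases from the annotated start. CHR matches gather within 50 bases of the start, with CCAAT matches mostly before them, and 6 genes show neither.

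In WT cells, mitosis genes read higher in ESCs than in MEFs without DOX. All 53 differences were above 0, against 4875 of all 9673 genes above the floor. Over the 53 the median was 1.51, with a range of 0.21 to 4.23, whereas the median of all genes above the floor was 0.01. Of the 52 above the floor, 43 were at least 2-fold higher in ESCs and 0 were lower. Over all genes above the floor, 14.5% were 2-fold higher and 19.8% lower. Between KO ESCs and the MEF library labelled KO without DOX, which uses no array of the first pair, the median was 0.97, against 0.14 for all genes. There 25 of 53 were 2-fold higher, 0 were lower, while 18.7% of all genes were higher and 17.1% lower. In both pairs 21 of the 53 were 2-fold higher, against 8.51% of all genes. Both ESC arrays lay above all 4 MEF arrays for 47 of the 53, against 30.4% of all genes. That count uses all 4 MEF arrays alike, so it does not depend on which of them had received DOX.

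Mybl2, which encodes B-Myb, the Myb factor of S phase and G2, differed most. Its values were 11.28 and 11.34 in WT and KO ESCs, 7.05 and 7.09 in WT MEFs without and with DOX, 8.40 and 7.39 in the libraries labelled KO without and with DOX, and 8.17 on the Nanog KO array. Both ESC values thus lay far above every fibroblast value, and both WT MEF values were below the floor. FoxM1, the forkhead factor of G2 genes, did not share this split. It read 9.12 and 9.13 in WT and KO ESCs, 8.02 and 7.72 in WT MEFs without and with DOX, 9.34 and 8.96 in the libraries labelled KO without and with DOX, and 6.75 on the Nanog KO array. The highest Foxm1 value was thus in a MEF library, and KO ESCs differed from it by -0.21.

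Of 8 genes grouped with entry into mitosis, 5 were 2-fold higher in WT ESCs than in WT MEFs without DOX, against 14.5% of all genes. Between KO ESCs and the MEF library labelled KO without DOX, 1 of 8 was, against 18.7%. It was Plk4, a centriole kinase, and 0 of 8 were 2-fold higher in both pairs. Plk1, the Polo-like kinase of mitotic entry and spindle poles, read 10.93 and 11.14 in WT and KO ESCs, 9.73 and 9.75 in WT MEFs without and with DOX, 10.72 and 10.04 in the libraries labelled KO, and 8.45 on the Nanog KO array. Both ESC values were above every fibroblast value, and the library labelled KO without DOX came within 0.42 of KO ESCs. Aurka, the Aurora kinase of the spindle poles, differed by 1.88 in the WT pair and 0.89 in the other. Cdk1 itself differed by 0.96 and 0.54. Cdc25b, a phosphatase that starts Cdk1 activation, was the exception, at 7.74 and 7.99 in WT and KO ESCs against 7.53, 9.20, 8.48 and 7.93 in WT MEFs without and with DOX and the libraries labelled KO without and with DOX. Its ESC values lay inside the range of the MEF arrays.

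The chromosomal passenger complex corrects wrong attachments at centromeres. Of its 4 members, 2 were 2-fold higher in the pair with KO ESCs and all 4 in the WT pair. Birc5 (survivin) and Cdca8 (borealin) differed by 2.03 and 1.92 there and by 1.03 and 1.54 in the other pair. Aurkb, its kinase, read 10.36 and 10.52 in WT and KO ESCs, 8.85 and 8.98 in WT MEFs without and with DOX, 10.51 and 9.74 in the libraries labelled KO, and 9.27 on the Nanog KO array. The library labelled KO without DOX thus reached the ESC level for Aurkb, with a difference of 0.02. Of the spindle checkpoint genes, Bub1 differed by 1.96 and 1.67, Ttk, which encodes the kinase Mps1, by 2.13 and 1.97, and Bub1b, which encodes BubR1, by 2.50 and 0.82. Bub3, the adaptor that brings Bub1 and BubR1 to kinetochores, differed little, at 0.22 and 0.19.

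All 10 centromere and kinetochore genes read higher on both ESC arrays than on all 4 MEF arrays. Cenpf, of the outer kinetochore corona, differed by 2.30 and 1.90 in the 2 pairs, Cenph, of the inner kinetochore, by 2.25 and 1.86, and Ndc80, which holds the microtubule end, by 1.54 and 1.04. Cenpa, the histone H3 variant of centromeres, differed by 1.51 and 0.75. Cenpk stayed below the floor in WT ESCs, at 7.13. In WT MEFs without DOX, 13 of the 43 genes 2-fold higher in WT ESCs read below the floor, so that their exact differences are uncertain; they were Cdc25c, Mybl2, Birc5, Ttk, Espl1, Cenpf, Cenph, Ndc80, Spc24, Kif4, Kif15, Kif20b and Kif22. In the MEF library labelled KO without DOX, 4 of the 25 genes 2-fold higher in KO ESCs read below the floor: Cenph, Cenpi, Cenpk and Kif20b. All 10 kinesin and spindle assembly genes also read higher on both ESC arrays than on all 4 MEF arrays. Kif15, a motor that holds spindle microtubule bundles, differed by 2.53 and 2.11, Kif20b, a motor of late mitosis, by 2.54 and 2.63, and Kif11 (Eg5), which pushes the spindle poles apart, by 1.69 and 1.39.

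Of the genes for release of the chromatids, Espl1, which encodes separase, differed by 2.58 and 1.58, Cdc20, an activator of the anaphase-promoting complex, by 1.40 and 0.56, while Pttg1, which encodes securin, was just past 2-fold in the WT pair and at 0.29 in the other. In cytokinesis, Ect2, the exchange factor that activates RhoA, differed by 2.16 and 1.56, and Anln, the contractile ring scaffold anillin, by 1.21 and 0.55. Among condensin subunits, Ncapg differed by 2.18 and 1.68 and Ncapd2 by 1.87 and 0.25. Top2a, topoisomerase II alpha, read 10.82 and 11.06 in WT and KO ESCs, 9.23 and 9.10 in WT MEFs without and with DOX, 9.93 and 9.76 in the libraries labelled KO, and 8.86 on the Nanog KO array, so the ESC and fibroblast arrays did not overlap. Mki67, the gene of the proliferation antigen Ki-67, differed by only 0.50 and 0.11, and its 2 ESC values of 10.23 and 10.63 overlapped the MEF range of 9.73 to 10.52.

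**Figure D2:**
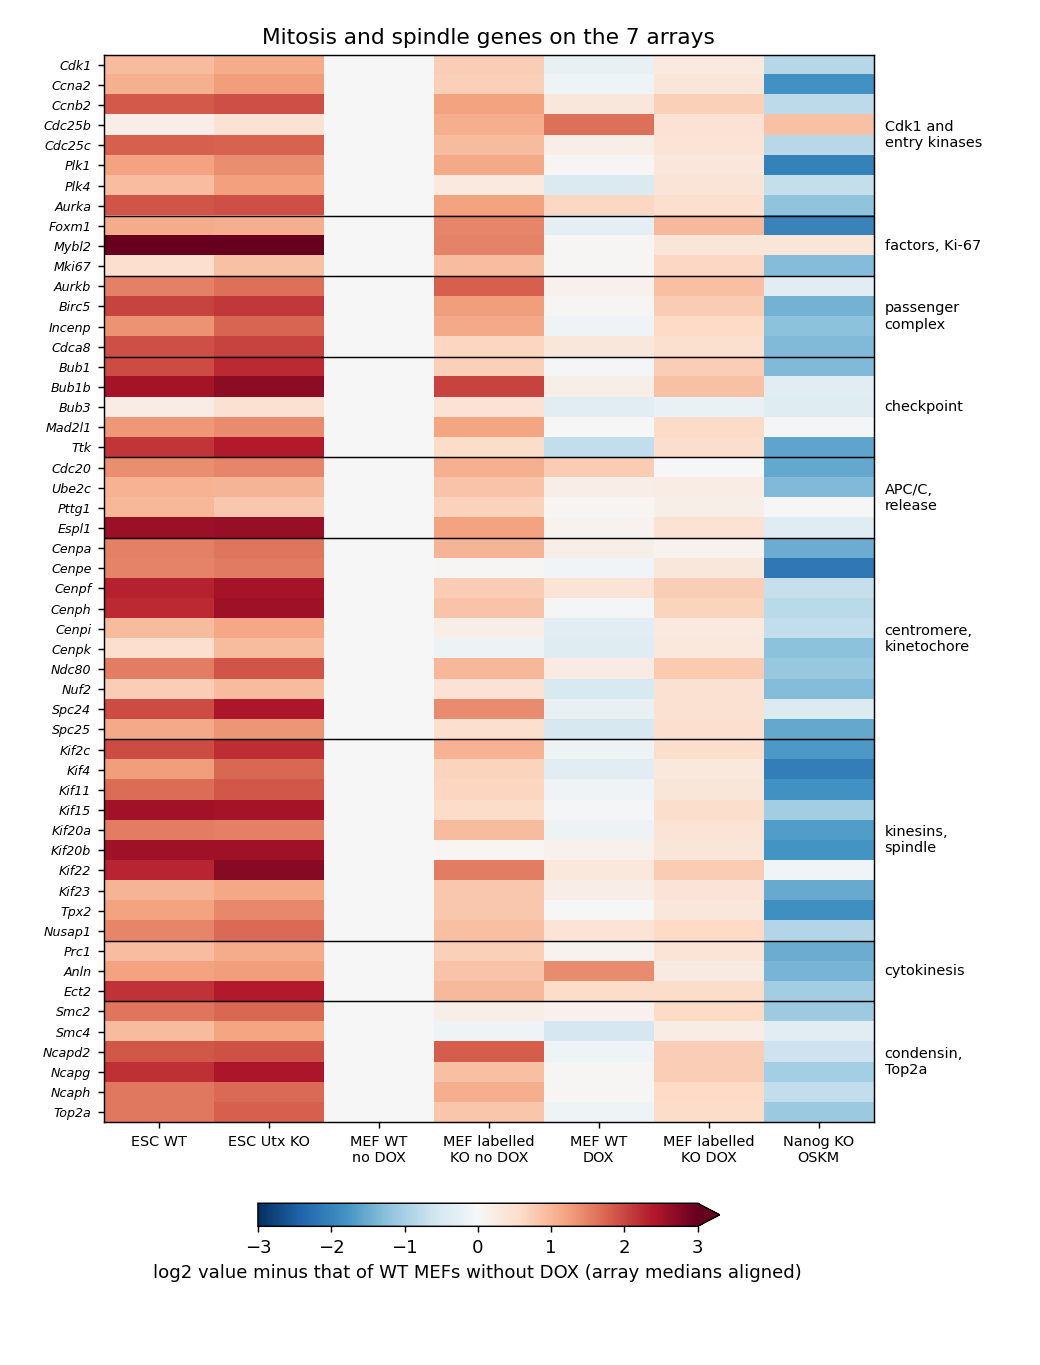
Colours show the log2 value of each of the 53 genes on each of the 7 arrays minus that of WT MEFs without DOX, after array medians were aligned, with genes grouped by role. The scale ends at ±3, which Mybl2 exceeds in ESCs; both ESC columns are red almost throughout, and the Nanog KO column is blue for most genes.

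An additive limma fit with terms for context and genotype, over the 6 arrays of Utx WT or KO cells, estimated the ESC difference from MEFs without DOX. It took that difference as alike in both genotypes and tested whether it was 0. Contexts followed the DOX labels as given, which are doubted for the libraries labelled KO, so the estimate and the residual rest on them. The residual of 2 degrees of freedom holds the change of the genotype difference between contexts and not the spread between cultures. At an adjusted p under 0.05 the fit called 0 of 53 genes, as it did 0.00% of all 10673 genes fitted. The smallest limma adjusted p among the 53 was 0.0731, for Kif20b (2.58 ± 0.28 SE), Mybl2 (3.58 ± 0.40 SE), Kif15 (2.32 ± 0.29 SE) and Cenpf (2.10 ± 0.27 SE). At an unadjusted p under 0.05, 40 of 53 were higher in ESCs and 0 lower, against 16.4% and 12.7% of all genes. Without the library labelled KO with DOX, the DOX context kept 1 array, which adds nothing to the residual. The estimates were then unchanged, such as 2.58 for Kif20b and 3.58 for Mybl2, and only their spread differed, so calls of that fit are not given. With both MEF contexts taken as 1, the limma fit called 40 of 53, against 11.6% of all genes.

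In ESCs, loss of Utx came with small differences in mitosis genes. The KO array was above the WT array for 51 of 53, against 5290 of 8598 genes above the floor. Over the 53 the median was 0.21, with a range of -0.16 to 0.51, and all genes above the floor had a median of 0.06. None of the 53 reached 2-fold in either direction, against 0.651% of all genes higher and 3.18% lower. The highest difference was that of Spc24, a subunit of the Ndc80 complex, at 8.54 in WT and 9.05 in KO, followed by the chromokinesins Kif22 and Kif4 at 0.48 each. Pttg1 was lowest at -0.16. Fibroblast markers also differed between both ESC arrays, with 7 of 11 above the floor in WT and 1 in KO and medians of 8.91 and 5.90, and their part in these small differences was not tested. Each of the 53 genes thus differed by less than 1.5-fold.

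The MEF library labelled KO without DOX read higher than WT MEFs without DOX for 49 of 53 genes, against 3918 of all 9253 genes above the floor. Over the 53 the median was 0.72 against -0.11 for all genes. Of the 48 above the floor, 13 were 2-fold higher and 0 lower, against 5.04% and 9.53% of all genes. The count was 20 with quantile normalization and 8 with the floor at the 60th percentile, where the share of all genes was not counted. They spanned several roles. Bub1b differed by 1.90, the condensin subunit Ncapd2 by 1.68, Aurkb by 1.66, Kif22 by 1.40, Mybl2 by 1.35, Foxm1 by 1.33, Spc24 by 1.27, Birc5 by 1.12 and Aurka by 1.07. Smc4, the core condensin ATPase, and Cenpe, a kinetochore motor, were at -0.26 and -0.10. Beside these differences, macrophage markers had a median of 10.38 in the WT and 6.75 in the library labelled KO, and Pou5f1 read 8.19 and 11.26.

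With DOX, the library labelled KO was above WT for 46 of 53 genes, against 4783 of all 9572 genes above the floor. Over the 53 the median was 0.49 against 0.00 for all genes. Foxm1 (1.24) and Ttk (1.24) were 2-fold higher and Cdc25b (-1.27) and Anln (-1.17) 2-fold lower, so 4 of 46 genes above the floor passed 2-fold, against 14.3% of all genes higher and 12.1% lower. Cdc20 also read lower, at 8.98 in the library labelled KO against 9.74 in WT. In this pair the epithelial markers had a median of 10.58 in the WT and 5.65 in the library labelled KO. Both MEF arrays labelled KO were above both WT MEF arrays for 40 of 53 genes, against 17.2% of all genes, and below both for 0, against 19.4%, which does not depend on which of the 2 libraries labelled KO had received DOX. The order above both was also present for 33 of 37 DNA replication genes and 63 of 105 other mitosis genes, so it was not particular to the 53. The KO array was above WT in all 3 pairs for 40 of 53 genes, against 12.2% of all genes, 25 of 37 DNA replication genes and 58 of 105 other mitosis genes.

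In the additive limma fit the KO difference passed an adjusted p of 0.05 for 0 of 53 genes and 0.00% of all genes, with an adjusted p of 0.995 for 52 of the 53 and of 1 for Cdc25b. At an unadjusted p under 0.05, 6 genes were higher and 0 lower, against 0.562% of all genes higher and 1.20% lower. They were Spc24 (0.82 ± 0.28 SE), Incenp (0.70 ± 0.23 SE), Kif2c (0.62 ± 0.23 SE), Mki67 (0.58 ± 0.18 SE), Top2a (0.53 ± 0.19 SE) and Ccna2 (0.42 ± 0.15 SE). Incenp is the scaffold of the passenger complex, Kif2c (MCAK) a microtubule-depolymerising kinesin, and Ccna2 cyclin A2. The SEs and p-values of this fit rest on the DOX labels as given, which are doubted for the libraries labelled KO.

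**Figure D3:**
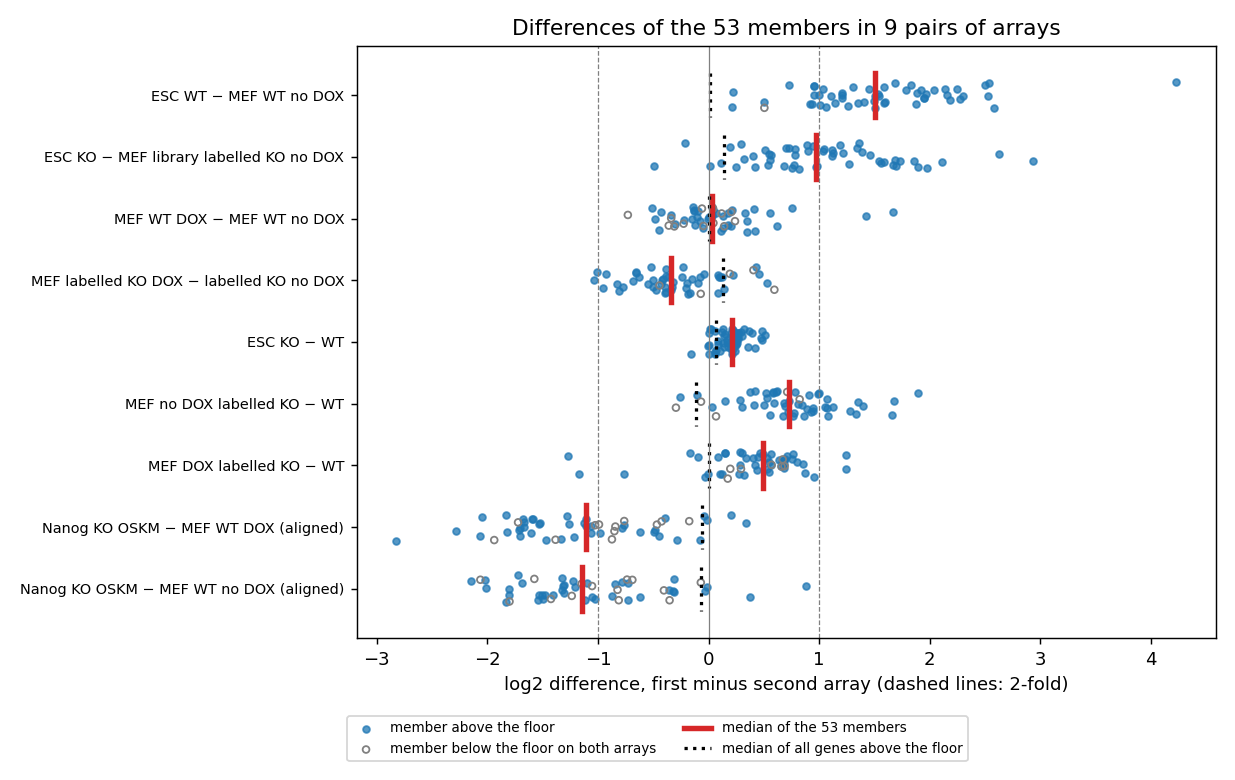
Each point is 1 of the 53 genes, at its log2 difference between 2 arrays (x axis) in 9 pairs of arrays (y axis); open points lay below the floor on both arrays, red bars are medians of the 53 and dotted bars medians of all genes above the floor. The medians are 1.51 and 0.97 in the ESC against MEF pairs and -1.11 and -1.15 in the Nanog KO pairs, and the ESC genotype pair is the narrowest.

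Mitosis genes as a group differed little between WT MEFs with and without DOX, where Pou5f1 followed the label. The median over the 53 was 0.03, against 0.00 for all genes, and the quartiles were -0.14 and 0.21. Only Cdc25b and Anln, 2 of the 40 above the floor, were 2-fold higher and 0 lower, against 11.9% of all genes higher and 13.7% lower. Cdc25b read 7.53 without and 9.20 with DOX, a difference of 1.67, and the value with DOX was its highest on the 7 arrays. Anln read 9.33 without and 10.76 with DOX, a difference of 1.42, and with DOX it exceeded both ESC arrays, at 10.54 and 10.60. Cdc20 followed at 0.76, Aurka at 0.62 and Ect2 at 0.55. The lowest above the floor were Smc4 at -0.51 and Spc25, of the Ndc80 complex, at -0.48. This pair shares its WT array without DOX with the first ESC comparison, and fibroblast markers had medians of 11.85 without and 7.30 with DOX.

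Between the libraries labelled KO, the array labelled with DOX read lower than that without for 40 of 53 genes, against 3566 of all 9119 genes above the floor. Over the 53 the median was -0.34 against 0.13 for all genes. Bub1b (-1.04) and Mybl2 (-1.01) were 2-fold lower and 0 of the 48 above the floor higher, against 2.93% of all genes lower and 6.81% higher. Since Pou5f1 was high in the library labelled without DOX and low in that labelled with it, the direction of this comparison rests on doubted labels. Cdc25b and Anln differed by -0.55 and -0.47 as labelled. With the DOX labels exchanged each difference only changes its sign, which says nothing about the labels. The values of Cdc25b and Anln are then 0.55 and 0.47, and the median over the 53 is 0.34. Ncapd2 would then be at 0.95, against -0.13 in the WT pair. As labelled, Ncapd2, Cdc20 and Spc24 were at -0.95, -0.93 and -0.83, and Smc2, the second condensin ATPase, at 0.53.

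**Figure D4:**
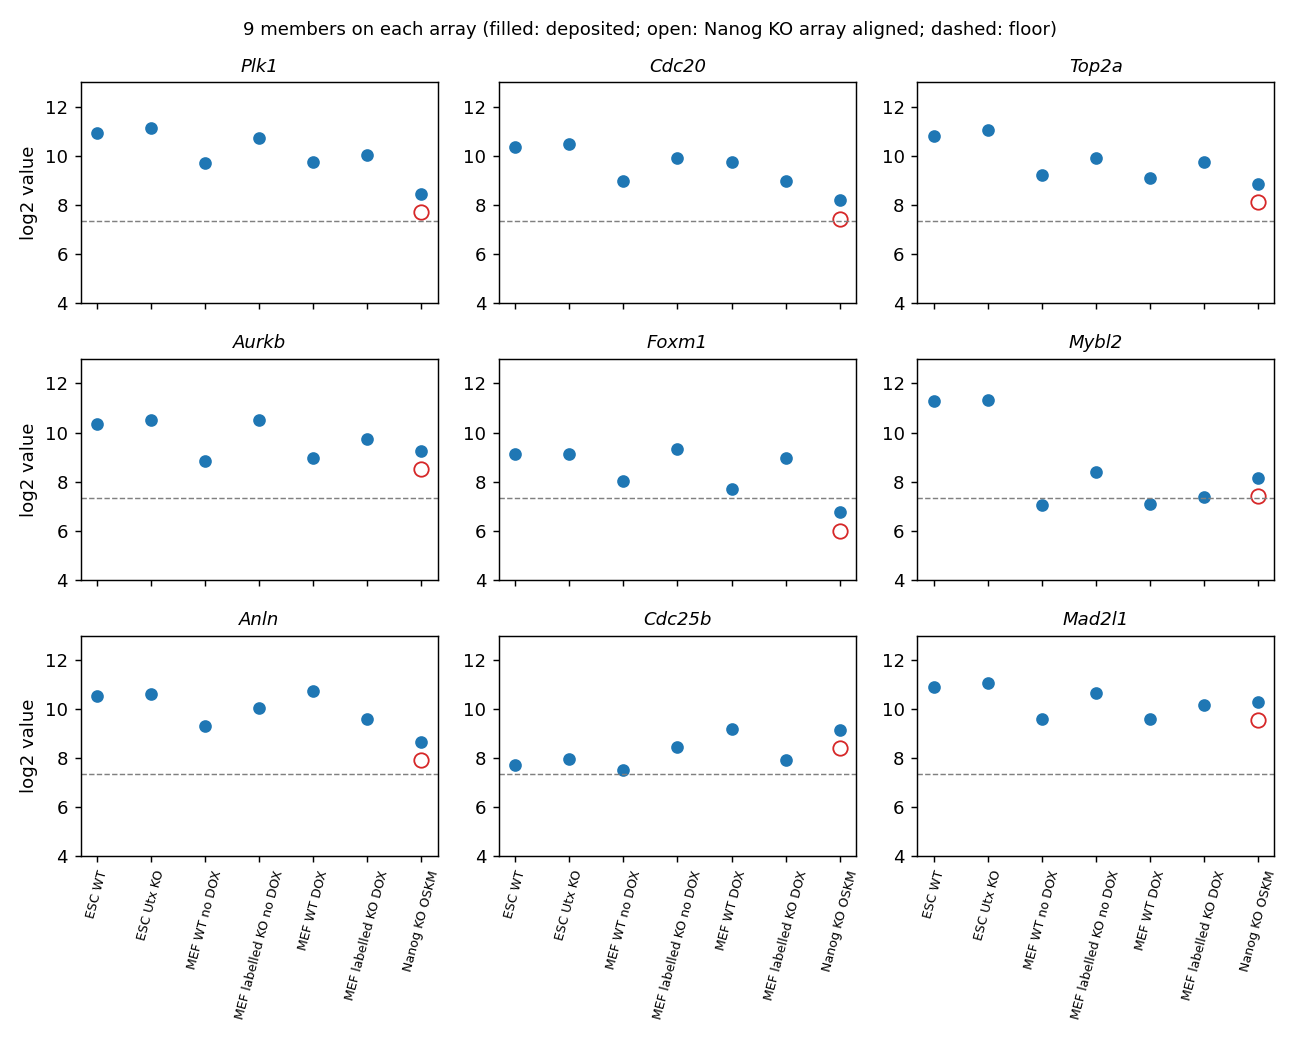
Log2 values of 9 genes (y axes) on each of the 7 arrays (x axes), with filled points as deposited, the open red point the Nanog KO array after alignment of medians, and the dashed line the floor of 7.34. Mybl2 is high on the 2 ESC arrays only, Anln and Cdc25b are highest in WT MEFs with DOX, and Mad2l1 on the aligned Nanog KO array lies level with WT MEFs.

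On the Nanog KO array, mitosis genes were low. After alignment, 50 of the 53 had their lowest value of all 7 arrays there, against 21.8% of all genes, and the exceptions were Cdc25b, Mybl2 and Smc4. On the deposited scale, where this array's median lies 0.74 above that of WT MEFs with DOX, 36 of 53 still had their lowest value there, against 2.39% of all genes, and after quantile normalization 48 did, against 19.7%. Against WT MEFs with DOX the aligned differences had a median of -1.11, with -0.06 for all genes. Of the 41 above the floor, 27 were 2-fold lower and 0 higher, against 13.3% of all genes lower and 13.1% higher. On the deposited scale the median was -0.37, with 6 genes 2-fold lower and 1 higher, Mybl2. The share of all genes past 2-fold was not counted on that scale. Against WT MEFs without DOX, in which the OSKM factors had not been induced, the aligned median was -1.15, with 25 of 39 genes 2-fold lower and 0 higher, against 11.0% of all genes lower and 9.41% higher. Both comparisons share the Nanog KO array.

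Anln stood lowest relative to WT MEFs with DOX. On the aligned scale it read 10.54 and 10.57 in WT and KO ESCs, 9.33 and 10.75 in WT MEFs without and with DOX, 10.19 and 9.61 in the libraries labelled KO, and 7.93 on the Nanog KO array. The difference was -2.83 from WT MEFs with DOX and -1.41 from those without. Cdc20, whose promoter is printed above, read 9.74 with and 8.98 without DOX and 7.45 on the Nanog KO array, differences of -2.29 and -1.53. Plk1 read 9.75, 9.73 and 7.70 on the same 3 arrays, differences of -2.05 and -2.02, so it did not depend on which WT array was taken. Cenpe read 7.65, 7.73 and 5.58, the last below the floor, with differences of -2.07 and -2.15.

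On the aligned Nanog KO array only 23 of the 53 were above the floor, and 16 of the 27 genes 2-fold lower than in WT MEFs with DOX read below it. Their exact differences, and the order of the medians by role, are therefore uncertain. The kinesin and spindle assembly genes had a median of -1.65 over all 10, with Tpx2, an activator of Aurora A, at -1.83, Kif11 at -1.71 and Kif23, a cytokinesis motor, at -1.71. The 3 cytokinesis genes had a median of -1.60, with Prc1, which bundles midzone microtubules, at -1.60. Passenger complex genes had a median of -1.29, although Aurkb itself was at -0.45, and the entry genes one of -1.08, from Plk1 down to Plk4, a centriole kinase, at -0.29. Kinetochore genes had a median of -0.97, and 6 of those 10 lay below the floor on both arrays. Condensin and topoisomerase genes were at -0.87 and checkpoint genes at -0.48. Foxm1 read 6.01 on the aligned Nanog KO array, -1.71 from WT MEFs with DOX and -2.01 from those without, and Mki67 was at -1.34 and -1.31.

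A few genes differed little after alignment, and without it each difference is about 0.74 higher. Mad2l1, the checkpoint protein Mad2, read 9.61 and 9.60 in WT MEFs with and without DOX and 9.57 on the aligned Nanog KO array, differences of -0.04 and -0.03. Pttg1 was at -0.08 and -0.02, Bub3 at -0.02 and -0.36, and Smc4 at 0.20 and -0.31. Mybl2 was at 0.34 and 0.37, close to the floor on all 3 arrays. Cdc25b was -0.79 from WT MEFs with DOX and 0.88 from those without, so its direction changed with the WT array taken.

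Set beside the promoters, 20 of the 27 genes with a CHR match and above the floor were 2-fold lower than in WT MEFs with DOX, and 2 of the 7 without a match, where 13.3% of all genes were lower. Over all measured genes with a window, above the floor or not, the medians were -1.38 for the 33 with and -0.76 for the 11 without a match. The 11 were Cdc25b, Mybl2, Bub1, Mad2l1, Pttg1, Cenph, Cenpi, Cenpk, Nuf2, Nusap1 and Ncaph. The ranges overlapped, at -2.83 to -0.02 with and -1.28 to 0.34 without a match, and the 2 sets were not tested against each other. In the WT ESC against MEF pair the corresponding medians were 1.59 and 1.30.

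Other genes of division gave a reference. Of 110 other measured mitosis genes, such as subunits of the anaphase-promoting complex, cohesin and further kinetochore proteins, 23 of the 80 above the floor were 2-fold lower on the Nanog KO array than in WT MEFs with DOX and 1 higher. That is 28.8% lower, against 13.3% of all genes, and their median was -0.55 after alignment and 0.19 on the deposited scale, so its sign rests on the alignment. The lowest named by rule were Cep55, of the abscission site (-2.18), Bard1, the partner of Brca1 (-2.01), and Kpna2, an importin (-1.96), and the highest Psrc1 (1.38). Of 37 DNA replication genes, 3 of the 31 above the floor were 2-fold lower (9.68%) and 1 higher (3.23%), neither share above that of all genes (13.3% and 13.1%). Their median was -0.36 after alignment and 0.38 on the deposited scale. Mcm5, of the replicative helicase, was at -1.31 and Ccne2, cyclin E2, at -1.59. The highest was Pold1 at 1.11, and 13 of the 37 aligned differences were above 0 and 24 below. In the WT ESC against MEF pair, by contrast, the replication genes had a median of 1.70 and the other mitosis genes 1.22, next to 1.51 for the 53.

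Of 20 measured CDK inhibitors and genes of the resting state, 5 of the 18 above the floor were 2-fold higher on the Nanog KO array than in WT MEFs with DOX and 3 lower, with a median of 0.05 (0.79 on the deposited scale). Those shares were 27.8% and 16.7%, against 13.1% and 13.3% of all genes. Against WT MEFs without DOX, 2 of 18 were higher and 3 lower, with a median of -0.07. Cdkn1c, which encodes the CDK inhibitor p57, read 10.54 on the aligned Nanog KO array, a difference of 3.87 from WT MEFs with DOX and 1.74 from those without. Cdkn2a, which encodes p16Ink4a and p19Arf, differed by 2.03 and 1.56. Gas1, a growth arrest gene of fibroblasts, differed by 2.72 and -0.91, so its direction turned with the WT array taken, and Btg2, an antiproliferative gene, by -3.21 and -1.49. Macrophage markers had a median of 8.98 on the aligned Nanog KO array, 5.40 in WT MEFs with DOX and 10.38 in those without. The part of such cells in the low values of the mitosis genes was not tested.

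**Figure D5:**
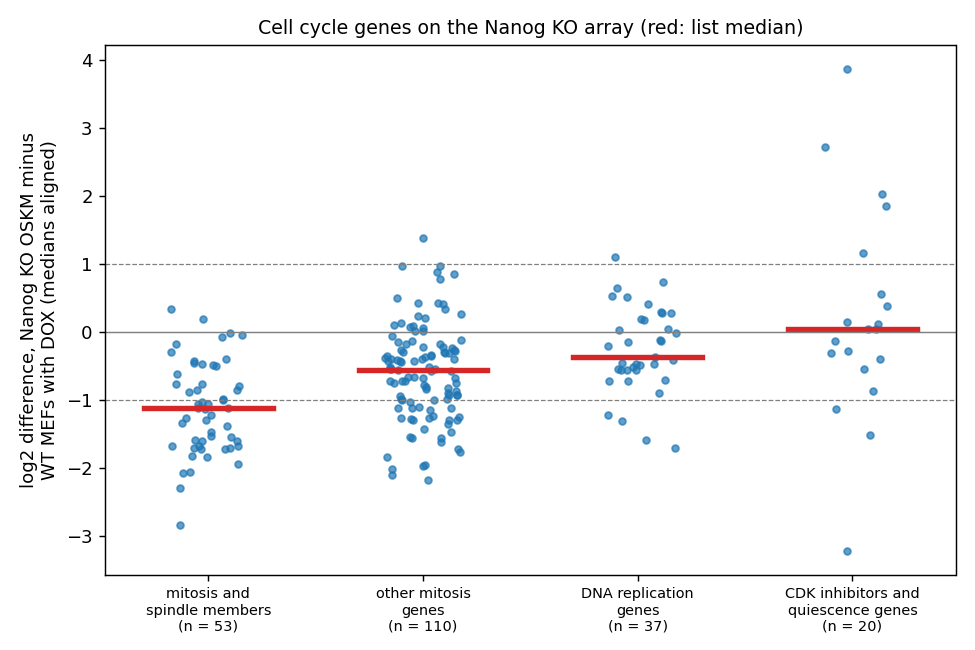
Each point is a gene at its aligned log2 difference between the Nanog KO array and WT MEFs with DOX (y axis), for the 53 mitosis and spindle genes, 110 other mitosis genes, 37 DNA replication genes and 20 CDK inhibitors and genes of the resting state (x axis); red bars are medians and dashed lines mark 2-fold. The medians are -1.11, -0.55, -0.36 and 0.05; on the deposited scale they are -0.37, 0.19, 0.38 and 0.79, so the sign flips for the other mitosis and the DNA replication genes.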

How the data were processed

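RNA of 7 samples was hybridised to 1 array each. The deposited log2 intensities came from RMA in Affymetrix Expression Console, according to the processing notes of the submitters. RMA subtracts background, equalises the distributions of arrays and combines the probes of a row. Software versions, genome build and whether the Nanog KO array was processed together with the rest remain not given in the sources used here. Depth has no counterpart on arrays, and their number limits the precision.

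Of 21811 rows, 14894 had 1 gene symbol in the platform annotation, 925 had several and 5992 were not listed there. The row with the highest mean stood for a gene, and each of the 53 genes had 1 row. Genes were counted where the higher value exceeded the 40th percentile. All 53 may be named; of other lists, the 3 highest and 3 lowest differences were eligible, beside Kdm6a, Pou5f1 and Nanog. The other lists were chosen with the same earlier results known. Nanog read 12.28 and 12.59 in WT and KO ESCs and 5.43 to 7.82 on the other arrays; pluripotency markers above the floor were 11 of 11 on both ESC arrays and 1 to 3 elsewhere.

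limma 3.58.1 (R 4.3.3; lmFit, eBayes with a trend) fitted 10673 genes, with Benjamini-Hochberg adjustment. Python 3.11.15, numpy 2.4.6 and pandas 2.3.3 did the rest. On simulated data the ESC contrast recovered 48 of 50 genes at a log2 change of 1, with independent noise of the same size for every gene. That noise was not matched to the spread of these arrays, so the recovery does not carry over to the real fit. In this contrast the real fit called 0 of 10673 genes. Alternatives covered scaling, the floor, the fold, rows, the variance prior and sets of arrays. Promoter windows for 9 genes were not used here.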

Additional observations from a re-analysis of the deposited data

Results flagged for a closer look

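Several genes differed in opposite directions, by the labels as given, in 2 contexts under the same contrast. With 1 array per condition, none of these differences was tested.

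For DOX, the difference in WT MEFs and that between the libraries labelled KO were, as labelled, 1.67 and -0.55 for Cdc25b, 1.42 and -0.47 for Anln, 0.17 and -1.04 for Bub1b, and 0.04 and -1.01 for Mybl2. Pou5f1 goes against the DOX labels of the libraries labelled KO. With those labels exchanged the values for Cdc25b, Anln, Bub1b and Mybl2 are 0.55, 0.47, 1.04 and 1.01. These genes were listed because their signs were opposite as labelled, so the exchange must make the signs equal and says nothing about the labels.

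For the KO label, Cdc25b was at 0.25 in ESCs and 0.94 in MEFs without DOX, and at -1.27 in MEFs with DOX. Anln was at 0.06, 0.72 and -1.17 in the same order. Aurka was at 1.07 in MEFs without DOX and -0.17 with DOX. The values of Cdc25b and Anln share the WT array with DOX, on which both were highest.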

How the results depend on the processing

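No count or median of the 53 genes, and no single difference of theirs past 2-fold, reversed under the alternatives of scaling, floor, fold and arrays. The medians of other mitosis and DNA replication genes on the Nanog KO array did on the deposited scale, to 0.19 and 0.38 against WT MEFs with DOX and 0.07 and 0.54 without, as did that of CDK inhibitors without DOX (0.67); exchanging the DOX labels turns the pair labelled KO to 0.34. Of 141 differences of single genes past 2-fold, 133 stayed past it under quantile normalization and 110 with the floor at the 60th percentile (8.48, aligned 8.38). On the deposited scale 12 of 52 from the Nanog KO array stayed. The counts there, higher and lower together, were 7 (median -0.37) against WT MEFs with DOX and 8 (median -0.41) without. After alignment 27 and 25 were found, all lower. The 7 and the 8 include Mybl2, which read higher on the Nanog KO array, at 8.17 against 7.09 and 7.05. The 8 also include Cdc25b, higher at 9.15 against 7.53. The count for the Nanog KO array against WT MEFs without DOX was 15 at the 60th percentile. The pair labelled KO with and without DOX had 4 genes past 2-fold and a median of -0.45 with aligned medians, 4 and -0.47 with quantile normalization, and 1 at the 60th percentile, against 2. For the MEF pair without DOX, 13 became 20 with quantile normalization and 8 at the 60th percentile. At 1.5-fold the counts were 38 (KO ESCs against the MEF library labelled KO), 4 and 11 (DOX in WT and labelled KO), and 34 and 19 (labelled KO against WT without and with DOX). For these counts past 2-fold or 1.5-fold under alternatives, the shares of all genes were not counted. The limma count for ESCs against MEFs was 40 with 2 context levels, and the cause was not tested. Without the library labelled MEF KO DOX the estimates were unchanged, and calls are not given because the DOX context kept 1 array. Under the remaining alternatives the count was 0. The order of both ESC arrays above all MEF arrays held for 47 genes under each scaling, and the Nanog KO array was lowest for 48 with quantile normalization, scalings added after seeing the data. No paired analysis was possible because the labels give no replicate numbers to serve as a block; the additive fit matched the genotypes within contexts instead.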
